A study of Mus musculus with 24 samples.

Results

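The suppressors of cytokine signalling were followed as 8 genes, Cish and Socs1 to Socs7, in primary murine bone marrow-derived macrophages (BMDMs). The members were taken by symbol from a table of 35770 genes, each symbol was found once, and all 8 were among the 13661 genes that passed a filter on low values. The table held 24 libraries, 3 independent samples in each of 8 groups. BMDMs from C57BL/6 mice, grown with 20 ng/mL M-CSF, received 75% conditioned medium (CM) or control medium without cells, and vehicle or 100 nM CDDO-Me was added for 24 h. The groups were media/vehicle, WT CM/vehicle, KEAP1 KO CM/vehicle and NRF2 KO CM/vehicle, and the same 4 media with CDDO-Me. CM had been taken after 48 h from LL2 cells, a murine Lewis lung carcinoma line, so that each KO was carried by the cancer cells and all macrophages were wild type. KEAP1 is the adaptor through which the transcription factor NRF2 is sent for degradation, and CDDO-Me (bardoxolone methyl) is a synthetic triterpenoid that binds KEAP1 and activates NRF2. A level set by fewer cells of a kind and a level set by less RNA per cell cannot be told apart in such bulk samples.

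SOCS proteins are the feedback arm of cytokine signalling. A cytokine bound to its receptor activates Janus kinases (JAKs), the JAKs phosphorylate STAT transcription factors, and STATs switch on SOCS genes among their targets. The SOCS proteins then bind phosphorylated receptors or JAKs through an SH2 domain, and their SOCS box recruits elongins B and C and cullin 5 so that the bound protein is ubiquitinated. In macrophages SOCS1 is best known as the brake on interferon-γ and IL-4 signalling and SOCS3 as the brake on IL-6-type cytokines that signal through gp130, whereas CIS (the product of Cish) and SOCS2 are known for feedback on receptors that use STAT5.

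Values were read as TPM, a share of all transcripts corrected for transcript length, because they summed to 999365 to 999801 in each library. They were deposited under the name of length-scaled TPM gene counts. Setting members beside each other rests on the reading as TPM. The depth of each library was unknown, because TPM does not keep it and the authors gave only an average. The replicate 3 libraries of NRF2 KO CM/vehicle and NRF2 KO CM/CDDO-Me stood apart, with 15702 and 16299 genes above 0 against 17817 to 18993 in the other 22 libraries, and the main results with NRF2 KO CM are given with and without them. Macrophage markers were at 24.4 TPM or more in every library, and their sum ran from 17961 to 40116 TPM. Markers of T cells, B cells, dendritic cells and carcinoma epithelium summed to at most 1.19, 1.42, 5.18 and 9.23 TPM. Dendritic cell markers were at 0.943 to 1.55 TPM in media/vehicle, 3.85 to 4.73 TPM in WT CM/vehicle, 3.26 to 4.30 TPM in KEAP1 KO CM/vehicle, 1.08 to 1.93 TPM in NRF2 KO CM/vehicle and 3.43 to 5.18 TPM in WT CM/CDDO-Me. Carcinoma markers were at 1.55 to 2.49 TPM in media/vehicle, 4.98 to 6.01 TPM in WT CM/vehicle, 8.76 to 9.23 TPM in KEAP1 KO CM/vehicle and 1.27 to 3.37 TPM in NRF2 KO CM/vehicle, and at 0.277 to 0.850 TPM in WT CM/CDDO-Me and 0.989 to 1.97 TPM in KEAP1 KO CM/CDDO-Me. Fibroblast markers were present, at 549 to 1134 TPM in sum in WT CM/vehicle and 204 to 585 TPM in WT CM/CDDO-Me, and at 772 to 1475 and 161 to 782 TPM with KEAP1 KO CM. Their ranges in the remaining groups were 763 to 1439 TPM in media/vehicle, 549 to 1676 TPM in media/CDDO-Me, 590.02 to 2082 TPM in NRF2 KO CM/vehicle and 257 to 1332 TPM in NRF2 KO CM/CDDO-Me. Neutrophil markers summed to 10.9 to 34.2 TPM in the vehicle groups and to 31.0 to 72.8 TPM in the CDDO-Me groups, with Ly6g at 0 in every library of 5 of the 8 groups. Each of the 7 fibroblast markers was above 0 in at least 1 library of every group, and the part of these cell types' RNA in the results was not tested.

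On GRCm39, as annotated by GENCODE, Cish is on chromosome 9 (107173225 to 107179983, plus strand, 3 exons), Socs1 on chromosome 16 (10600104 to 10603875, minus strand, 2 exons) and Socs2 on chromosome 10 (95219523 to 95253929, minus strand, 4 exons). Socs3 (117856905 to 117860898, minus strand, 2 exons) and Socs7 (97253032 to 97289368, plus strand, 10 exons) share chromosome 11. Socs4 is on chromosome 14 (47514368 to 47533559) and Socs5 on chromosome 17 (87414674 to 87445267). The coding sequence is held by a single exon in Socs1, Socs3, Socs4, Socs5 and Socs6. By that annotation 7 of the 8 genes, all but Socs4, overlap a gene on the other strand, and whether the library kit marked strand was not given in the sources used here, so that reads of such pairs may not have been told apart.

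Start-site sequences are shown for the members whose levels moved most, because STAT proteins bind short paired letters there. STAT dimers bind TTCNNNGAA, STAT6 favours the longer spacing TTCNNNNGAA, and the interferon-responsive element is of the kind GAAANNGAAA. These 3 motifs were chosen after the levels were known and were searched on both strands. RefSeq start-site windows (250 bases before to 50 bases after the start) were given for 4 of the 8 members, Cish, Socs1, Socs3 and Socs4, on GRCm38, and each was found again at a single place in GRCm39. In the stretches below, each of 30 bases and written 5′ to 3′ along the gene, capitals mark the matches.
Cish: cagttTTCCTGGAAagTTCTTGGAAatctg
Socs1: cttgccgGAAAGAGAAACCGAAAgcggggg
Socs3: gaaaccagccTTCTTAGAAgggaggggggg
The Cish stretch (chr9:107173853-107173882, plus strand) holds TTCNNNGAA at bases 1 to 9 and 12 to 20 counted from the RefSeq start. The Socs1 stretch (chr16:10603461-10603490, minus strand) holds overlapping GAAANNGAAA matches at −83 to −74 and −77 to −68. The Socs3 stretch (chr11:117860327-117860356, minus strand) holds TTCNNNGAA at −154 to −146, and the Socs4 window held none of the 3 motifs. The RefSeq windows of Cish, Socs1 and Socs3 held no match of the 3 motifs beyond those shown. GENCODE places both the Cish and the Socs1 stretch in the 5′ UTR of the first exon, because its start sites lie farther upstream, and the Socs3 stretch upstream of its canonical transcript. Of 32851 such windows, 8.3% held TTCNNNGAA and 0.457% held it at least 2 times, 6.95% held TTCNNNNGAA, and 3.44% held GAAANNGAAA with 0.225% holding it at least 2 times.

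The 250 bases upstream of the canonical GENCODE start were read for all 8 members. The Socs1 window (chr16:10603876-10604125, minus strand, 70% G or C) is shown because it held TTCNNNNGAA 3 times, with first bases at −172, −120 and −88, marked by capitals.
Socs1 upstream: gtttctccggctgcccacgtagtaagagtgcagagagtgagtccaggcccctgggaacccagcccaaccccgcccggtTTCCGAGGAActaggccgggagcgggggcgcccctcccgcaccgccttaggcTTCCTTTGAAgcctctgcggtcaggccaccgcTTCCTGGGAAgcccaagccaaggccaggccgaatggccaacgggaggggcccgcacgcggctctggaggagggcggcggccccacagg
Among 21757 promoters of this length 5.9% held TTCNNNNGAA, and 2 promoters held it at least 3 times. The Cish window held it once, at −226, and the Socs3 window held TTCNNNGAA once, at −223, the same site as in its RefSeq window. The windows of Cish, Socs1 and Socs3 held no other match of the 3 motifs. The matches of Cish and Socs1 thus differed between the RefSeq and the GENCODE windows. The windows of Socs2, Socs4, Socs5, Socs6 and Socs7 held none of the 3 motifs. A match describes letters only.

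In media/vehicle BMDMs the family was made up mainly of Socs6 and Socs5. Socs6 was at 58.1 ± 8.84 TPM (SD, n = 3) and held 44.3% of the summed TPM of the 8 members, and Socs5 was at 28.5 ± 2.40 TPM (21.8%). Socs3, Socs4 and Socs7 had mean levels between 10.9 and 12.6 TPM, and Socs2 was at 7.13 ± 0.884 TPM. Cish and Socs1 were the lowest, at 0.610 ± 0.142 and 0.942 ± 0.274 TPM. The ratio of the highest to the lowest group mean over the 8 groups was 179 for Socs1, 40.9 for Cish and 6.49 for Socs3. It was 2.92 for Socs2, 2.33 for Socs6, 2.18 for Socs5, 1.60 for Socs7 and 1.27 for Socs4, so that the members at the lowest level in media were those with the widest range. The lowest mean of Socs1 was in NRF2 KO CM/vehicle, at 0.646 TPM, where the library with few genes held 0.169 TPM. Those of Cish and Socs7 were in NRF2 KO CM/CDDO-Me, where the library with few genes held 0.103 and 4.65 TPM. The ratios of Socs1, Cish and Socs7 are raised by these libraries.

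**Figure D1:**
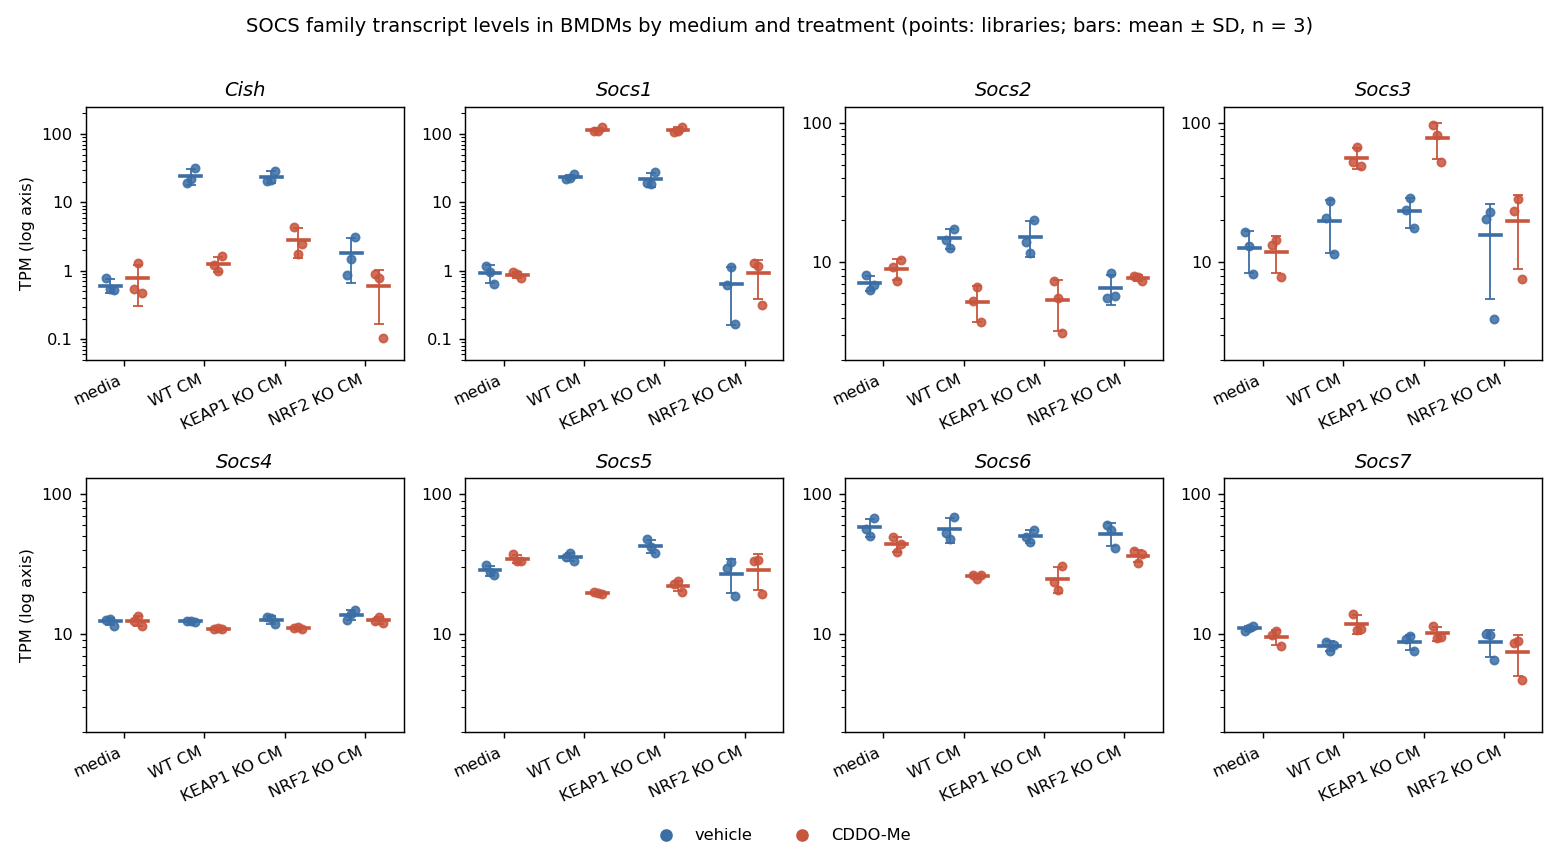
TPM (log axis) of each member in the 4 media with vehicle (blue) or CDDO-Me (red); points are libraries and bars the mean ± SD of 3. Cish was high in WT CM/vehicle and KEAP1 KO CM/vehicle alone, Socs1 rose again with CDDO-Me in these media, and Socs4 stayed between 10.8 and 14.8 TPM in all 24 libraries.

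With CM the first question was which members the cancer cells' medium moved in vehicle-treated BMDMs. Cish, Socs1 and Socs2 were higher in WT CM/vehicle than in media/vehicle BMDMs, and no member was lower. These 3 of 8 members stood against 7.23% of all genes tested (4.38% higher). With KEAP1 KO CM the same comparison called 4 of 8 members, Cish, Socs1, Socs2 and Socs5, all higher, against 8.06% of all genes (4.88% higher). With NRF2 KO CM it called 0 of 8 members by limma, 1 of them with an unadjusted p under 0.05, against 0.00732% of all genes. The 3 comparisons share the media/vehicle libraries.

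Cish, the inhibitor that competes with STAT5 at the receptor, had the largest of these changes. Its media/vehicle libraries were at 0.774, 0.536 and 0.520 TPM, its WT CM/vehicle libraries at 19.2, 22.3 and 31.7 TPM, and its KEAP1 KO CM/vehicle libraries at 20.5, 21.6 and 29.2 TPM. Every library with WT or KEAP1 KO CM was thus above every media library by a wide gap. Its mean was 40.0 times the media mean with WT CM (log2 difference 3.98, SE 0.31, adjusted p = 2.82e-08) and 38.9 times with KEAP1 KO CM (log2 difference 3.89, SE 0.31, adjusted p = 3.76e-08). In NRF2 KO CM/vehicle the libraries were at 0.879, 1.49 and 3.17 TPM, each above the 3 media libraries and each far below the other CM libraries, and the difference from media did not pass the test (log2 difference 0.74, SE 0.31, adjusted p = 0.408). The highest of them came from the library with few genes detected. Without both such libraries the log2 difference was 0.40 (adjusted p = 0.944). This comparison then again called 0 of 8 members, against 0.00737% of all genes.

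Socs1, which blocks JAK catalytic activity directly, went from 1.20, 0.978 and 0.652 TPM in media/vehicle to 22.3, 23.1 and 25.8 TPM in WT CM/vehicle and 19.1, 18.6 and 28.2 TPM in KEAP1 KO CM/vehicle. The groups with WT or KEAP1 KO CM did not overlap media, and the log2 differences were 3.71 (SE 0.21, adjusted p = 3.07e-10) and 3.52 (SE 0.21, adjusted p = 7.47e-10). In NRF2 KO CM/vehicle it was at 0.631, 1.14 and 0.169 TPM, within or below the media range (log2 difference −0.27, SE 0.21, adjusted p = 0.499; −0.07 without the 2 libraries with few genes). Cish and Socs1, which were the lowest members in media, held 12.5% and 12.1% of the family's TPM in WT CM/vehicle, against 0.466% and 0.719% in media/vehicle.

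Socs2, a regulator of growth hormone receptor signalling, changed less. It was at 8.10, 6.37 and 6.92 TPM in media/vehicle, 14.4, 12.7 and 17.4 TPM in WT CM/vehicle and 14.0, 11.7 and 20.1 TPM in KEAP1 KO CM/vehicle, without overlap between media and either CM. The mean was 2.08 times that of media with WT CM (log2 difference 1.02, SE 0.24, adjusted p = 0.0106) and 2.14 times with KEAP1 KO CM (log2 difference 0.97, SE 0.24, adjusted p = 0.0138). The WT CM call was lost without media/vehicle replicate 2 (adjusted p = 0.0559) or WT CM/vehicle replicate 3 (adjusted p = 0.0638). The KEAP1 KO CM call was lost without media/vehicle replicate 2 (adjusted p = 0.0658) or KEAP1 KO CM/vehicle replicate 3 (adjusted p = 0.0874). In NRF2 KO CM/vehicle Socs2 was at 5.58, 8.38 and 5.70 TPM, overlapping media.

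Socs5, linked to restraint of IL-4 and EGF receptor signalling, was at 31.1, 27.9 and 26.4 TPM in media/vehicle, 35.5, 38.0 and 33.4 TPM in WT CM/vehicle and 47.6, 42.1 and 38.2 TPM in KEAP1 KO CM/vehicle. The groups did not overlap, and the difference passed with KEAP1 KO CM (log2 difference 0.56, SE 0.16, adjusted p = 0.0299) but not with WT CM (0.38, SE 0.16, adjusted p = 0.181). The KEAP1 KO CM call was lost without media/vehicle replicate 2 or 3 or KEAP1 KO CM/vehicle replicate 1 or 2, at adjusted p = 0.0964, 0.110, 0.151 and 0.0651, and without scaling between libraries (adjusted p = 0.0744). Without the 2 libraries with few genes, which are in neither group but set the shared spread, the WT CM difference passed as well (log2 difference 0.38, adjusted p = 0.00185).

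Socs3, the gp130 inhibitor, spread widely within groups, at 16.5, 13.01 and 8.19 TPM in media/vehicle, 20.6, 27.6 and 11.4 TPM in WT CM/vehicle and 23.8, 28.9 and 17.5 TPM in KEAP1 KO CM/vehicle, with replicate 3 the lowest in each group. Its log2 differences of 0.65 (95% interval −0.35 to 1.65) and 0.87 (−0.13 to 1.87) did not pass the test. The first was 0.40 without media/vehicle replicate 3, 0.40 without WT CM/vehicle replicate 2 and 0.97 without WT CM/vehicle replicate 3, and passed in none of the fits with a library left out. With KEAP1 KO CM the groups did not overlap, and the difference passed without the 2 libraries with few genes (adjusted p = 0.0367). Socs4 and Socs6, which act on epidermal growth factor and stem cell factor receptor signalling, had intervals of −0.12 to 0.25 and −0.37 to 0.41 for WT CM against media, with overlapping groups. Socs7, a member that binds the adaptor NCK, was lower with WT CM without overlap, at 8.77, 7.50 and 8.34 TPM against 10.6, 10.95 and 11.3 TPM in media/vehicle, but its log2 difference of −0.31 (SE 0.17) had an adjusted p of 0.356.

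KEAP1 KO CM and WT CM were then compared with each other in vehicle-treated BMDMs, the comparison that asks what loss of KEAP1 in the cancer cells added. By limma 0 of 8 members passed, 0 of 8 had an unadjusted p under 0.05, and 0% of all genes passed, although with array weights 7.13% of all genes did, Socs5 among them. The 95% interval of the log2 difference was −0.73 to 0.55 for Cish, −0.64 to 0.25 for Socs1 and −0.55 to 0.45 for Socs2. For Socs5 it was −0.15 to 0.51, although the KEAP1 KO CM libraries, at 38.2 to 47.6 TPM, lay just above the WT CM libraries, at 33.4 to 38.0 TPM. A p that misses the threshold does not show that these media act alike.

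WT CM against NRF2 KO CM, in vehicle, called Cish, Socs1 and Socs2 higher with WT CM, 3 of 8 members against 10.6% of all genes (6.84% higher), a share that fell to 1.37% when only these groups were fitted. KEAP1 KO CM against NRF2 KO CM called Cish, Socs1, Socs2 and Socs5 higher with KEAP1 KO CM, 4 of 8 against 9.03% (6.16% higher). Both comparisons share the NRF2 KO CM/vehicle libraries. Cish was 13.2 times as high with WT CM (log2 difference 3.24, SE 0.31, adjusted p = 5.55e-07) and Socs1 36.7 times as high (3.99, SE 0.21, adjusted p = 1.34e-10). Without the 2 libraries with few genes these differences were 3.59 and 3.78 and still passed (adjusted p = 8.45e-08 and 1.59e-10). Socs2 differed by 1.14 with WT CM (adjusted p = 0.00411; without those libraries 1.10, adjusted p = 0.0115), and lost the call when only these groups were fitted (adjusted p = 0.0671). Socs5 with KEAP1 KO CM differed by 0.68 (adjusted p = 0.00908), a call that was lost without KEAP1 KO CM/vehicle replicate 1 (adjusted p = 0.0573) or NRF2 KO CM/vehicle replicate 3 (adjusted p = 0.0530). With both of the libraries with few genes left out it was 0.48 (adjusted p = 0.00108). Socs5 with WT CM, at 0.49, fell just short (adjusted p = 0.0501) and passed without the 2 libraries (0.30, adjusted p = 0.0267).

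**Figure D2:**
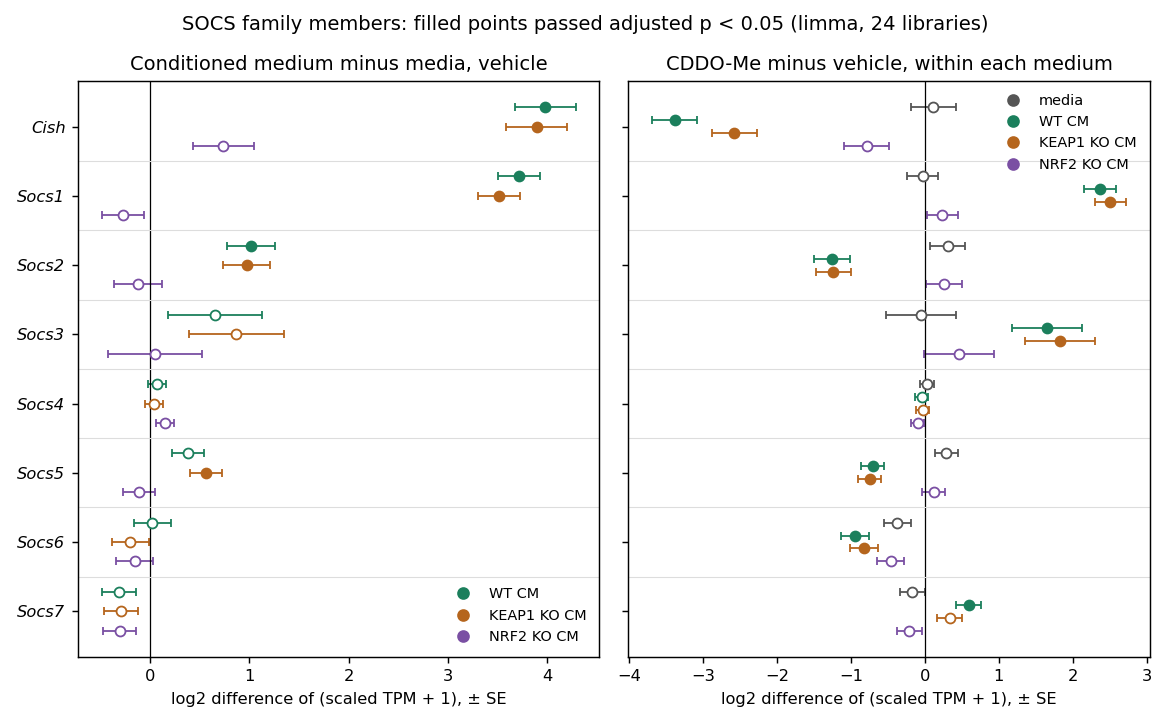
Log2 differences of scaled TPM plus 1 (x axis, ± SE) for the 8 members, with CM against media in vehicle (left) and CDDO-Me against vehicle within each medium (right); filled points passed an adjusted p under 0.05 by limma. Cish rose with WT and KEAP1 KO CM and fell with CDDO-Me in both, Socs1 rose in both panels with these media, and no point of the media or NRF2 KO CM series is filled.

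CDDO-Me was then compared with vehicle within each medium. In control media it called no member by limma, with 0 of 8 past the threshold and 0 of 8 at an unadjusted p under 0.05, against 6.02% of all genes. Without the 2 libraries with few genes, Socs5 was called higher there (log2 difference 0.30, adjusted p = 0.0141), against 14.9% of all genes. In WT CM it called 7 of 8 members, Socs1, Socs3 and Socs7 higher and Cish, Socs2, Socs5 and Socs6 lower, against 27.9% of all genes (14.5% higher, 13.4% lower). In KEAP1 KO CM it called 6 of 8, Socs1 and Socs3 higher and the same 4 lower, against 28.8% (14.5% higher, 14.3% lower). With NRF2 KO CM it called 0 of 8, with 2 at an unadjusted p under 0.05, against 9.61%, and without the 2 libraries with few genes again 0 of 8, against 9.55%. With the replicate number as a block Socs6 passed there, against 14.5% of all genes.

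Socs1 rose to the highest level of any member in any group. In WT CM/CDDO-Me it was at 111, 111 and 125 TPM and in KEAP1 KO CM/CDDO-Me at 106, 109 and 126 TPM, far above the vehicle libraries, the highest of which held 28.2 TPM. The mean was 4.88 times that of vehicle in WT CM (log2 difference 2.37, SE 0.21, adjusted p = 3.5e-08) and 5.18 times in KEAP1 KO CM (2.51, SE 0.21, adjusted p = 1.62e-08). In control media it stayed at 0.949, 0.912 and 0.786 TPM (log2 difference −0.03, 95% interval −0.47 to 0.42) and in NRF2 KO CM at 1.28, 1.16 and 0.316 TPM (0.23, −0.21 to 0.68; 0.26 without the 2 libraries with few genes). Its share of the family's TPM in WT CM was 46.9% with CDDO-Me and 12.1% with vehicle.

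Cish moved the other way in the same cells. It was at 1.21, 0.992 and 1.62 TPM in WT CM/CDDO-Me and 4.31, 1.79 and 2.45 TPM in KEAP1 KO CM/CDDO-Me, below every vehicle library of either medium. The vehicle mean was 19.1 times the CDDO-Me mean in WT CM (log2 difference −3.39, SE 0.31, adjusted p = 3.93e-08) and 8.33 times in KEAP1 KO CM (−2.58, SE 0.31, adjusted p = 1.53e-06). In control media it was at 0.539, 1.31 and 0.472 TPM (log2 difference 0.11, 95% interval −0.53 to 0.75). In NRF2 KO CM/CDDO-Me it was at 0.899, 0.786 and 0.103 TPM, overlapping vehicle, and the log2 difference of −0.79 (adjusted p = 0.128) was −0.21 without the 2 libraries with few genes and passed without NRF2 KO CM/vehicle replicate 1 (−1.04, adjusted p = 0.0478).

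**Figure D3:**
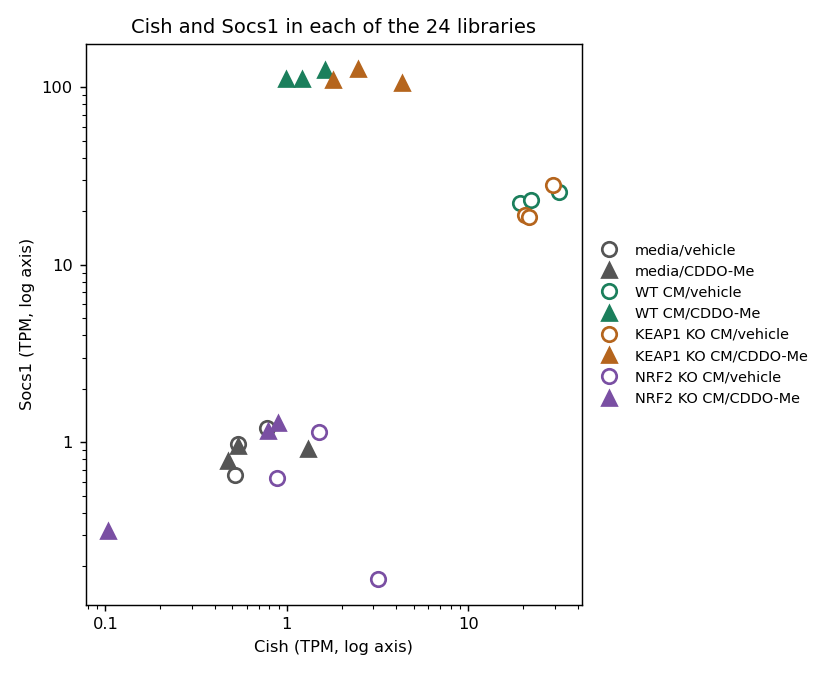
Cish (x axis) against Socs1 (y axis) in TPM on log axes, with 1 point per library; open circles are vehicle and triangles CDDO-Me. The 6 libraries of WT and KEAP1 KO CM with vehicle lie where both genes are high, the 6 with CDDO-Me where Socs1 is above 100 TPM and Cish below 5 TPM, and the 12 media and NRF2 KO CM libraries where both are low.

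Socs3 rose with CDDO-Me in both of these media. It was at 52.2, 67.0 and 49.3 TPM in WT CM/CDDO-Me and 96.4, 82.0 and 52.7 TPM in KEAP1 KO CM/CDDO-Me, all above the vehicle libraries, the highest of which held 28.9 TPM. The log2 difference was 1.65, SE 0.48, adjusted p = 0.0122 in WT CM and 1.83, SE 0.48, adjusted p = 0.00575 in KEAP1 KO CM. The WT CM call was lost without WT CM/vehicle replicate 3, the lowest of its group (1.34, adjusted p = 0.0718). In control media, at 13.3, 14.5 and 7.83 TPM, and in NRF2 KO CM, at 23.3, 28.3 and 7.61 TPM, the groups overlapped vehicle. Replicate 3 with NRF2 KO CM, the library with few genes, was again the lowest, as it was with vehicle at 3.90 TPM. The CDDO-Me difference there was 0.46 with and 0.28 without the 2 libraries with few genes and passed in neither fit.

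Socs2, which CM had raised, fell with CDDO-Me to 5.28, 6.70 and 3.72 TPM in WT CM and 7.33, 5.59 and 3.12 TPM in KEAP1 KO CM. These libraries lay below all vehicle libraries of the same medium, and the log2 differences were −1.25, SE 0.24, adjusted p = 4.01e-04 in WT CM and −1.24, SE 0.24, adjusted p = 4.34e-04 in KEAP1 KO CM. The means, 5.24 and 5.35 TPM, were the lowest of the 8 groups, with ranges that overlapped the next group in the order, NRF2 KO CM/vehicle. In control media with CDDO-Me the libraries were at 9.23, 7.35 and 10.5 TPM and overlapped vehicle (log2 difference 0.31, 95% interval −0.19 to 0.81).

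Socs5 and Socs6 (chromosome 18, 88683348 to 88945635, minus strand, 3 exons), the most abundant members in media, also fell. Socs5 was at 19.9, 19.5 and 19.3 TPM in WT CM/CDDO-Me and 22.8, 23.8 and 20.1 TPM in KEAP1 KO CM/CDDO-Me, with no overlap with vehicle (log2 differences −0.71 and −0.74, SE 0.16, adjusted p = 0.00160 and 9.64e-04). Socs6 was at 26.5, 24.7 and 26.7 TPM in WT CM/CDDO-Me and 23.7, 20.5 and 30.6 TPM in KEAP1 KO CM/CDDO-Me, against 52.5, 47.7 and 69.2 TPM and 49.6, 45.3 and 55.4 TPM with vehicle (−0.95 and −0.83, SE 0.19, adjusted p = 5.46e-04 and 0.00183). All CDDO-Me libraries of these media were below all vehicle libraries for both genes. In control media Socs5 went the other way, at 37.3, 33.3 and 33.1 TPM with CDDO-Me, without overlap with vehicle. That difference of 0.29 did not pass (adjusted p = 0.417). Socs6 was the one member that was lower with CDDO-Me in all 4 media by its means. In control media it was at 49.1, 38.4 and 44.3 TPM and in NRF2 KO CM at 39.5, 32.3 and 37.5 TPM, without overlap with vehicle in either, but the differences of −0.37 and −0.46 did not pass (adjusted p = 0.353 and 0.147). With NRF2 KO CM the same-numbered vehicle and CDDO-Me libraries deviated together, and with the replicate number as a block the Socs6 difference passed (adjusted p = 0.0274). Without the 2 libraries with few genes it was −0.64 (adjusted p = 0.0813).

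Socs7 was higher with CDDO-Me in WT CM, at 14.0, 10.7 and 10.8 TPM against 8.77, 7.50 and 8.34 TPM, without overlap (log2 difference 0.59, SE 0.17, adjusted p = 0.0108). That call was lost without WT CM/vehicle replicate 2 (adjusted p = 0.0546) or WT CM/CDDO-Me replicate 1 (adjusted p = 0.0823), and without scaling between libraries (adjusted p = 0.0683). In KEAP1 KO CM the libraries overlapped, at 11.4, 9.32 and 9.54 TPM with CDDO-Me and 9.14, 9.61 and 7.59 TPM with vehicle, and the difference of 0.34 had an adjusted p of 0.153. It passed without the 2 libraries with few genes (adjusted p = 0.0267). Socs4 was called in none of the 14 comparisons. In deposited TPM its CDDO-Me libraries in WT CM, at 10.9, 10.96 and 10.8 TPM, lay below the vehicle libraries, at 12.5, 12.3 and 12.1 TPM, but after scaling between libraries the log2 difference was −0.04 (95% interval −0.23 to 0.14), and the ratio of its highest to its lowest group mean was 1.12 in scaled TPM.

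**Figure D4:**
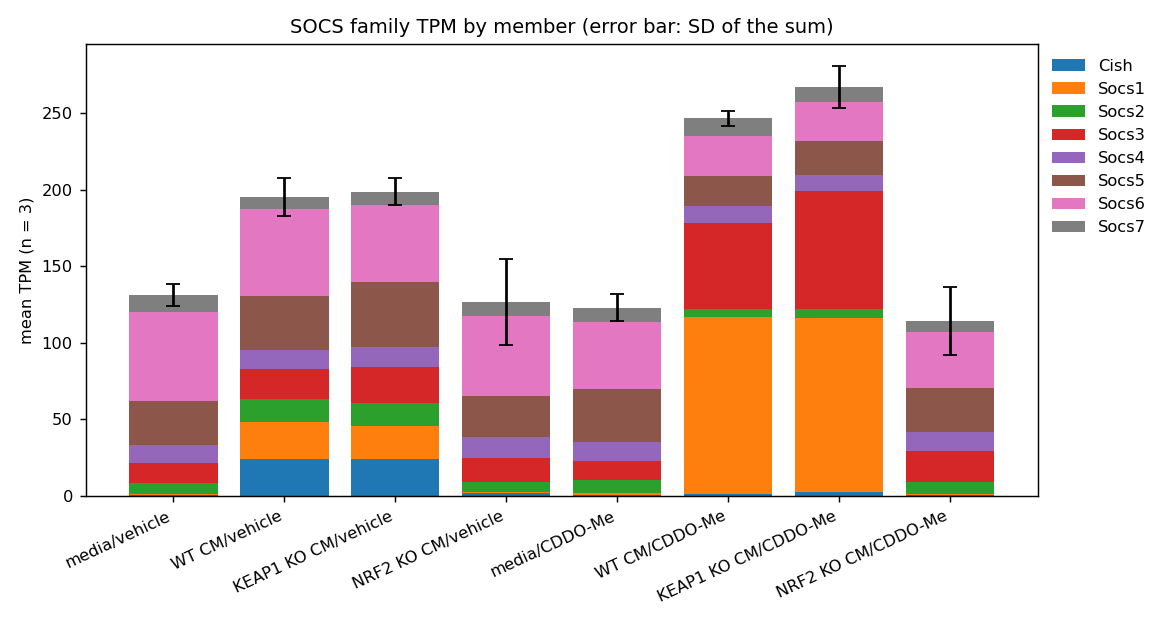
Mean TPM of each member, stacked by group (n = 3 libraries; error bar, SD of the sum of the 8 members). The sum was highest in KEAP1 KO CM/CDDO-Me, at 267 ± 14.0 TPM, and was 114 ± 22.0 TPM in NRF2 KO CM/CDDO-Me, where replicate 3 was low at 88.7 TPM, and Socs1 and Socs3 made up most of the taller bars with CDDO-Me in WT and KEAP1 KO CM.

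Summed over the 8 members the family was at 131 ± 7.26 TPM in media/vehicle, 195 ± 12.4 TPM in WT CM/vehicle and 247 ± 4.93 TPM in WT CM/CDDO-Me (SD, n = 3). With KEAP1 KO CM the sum was 199 ± 8.72 TPM with vehicle and 267 ± 14.0 TPM with CDDO-Me, and with NRF2 KO CM 127 ± 28.2 and 114 ± 22.0 TPM. Without the 2 libraries with few genes, whose sums were 94.2 and 88.7 TPM, the NRF2 KO CM means were 143 TPM with vehicle and 127 TPM with CDDO-Me (n = 2). Within the sum the shares moved in both directions. In WT CM, Socs5 and Socs6 held 18.2% and 28.9% of it with vehicle, and 7.93% and 10.5% with CDDO-Me, whereas Socs3 went from 10.2% to 22.8%.

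Whether the CDDO-Me effect depended on the medium was tested by interaction contrasts, which share the control media libraries. With WT CM set against media, 5 of 8 members passed, against 15.3% of all genes (8.59% with a higher and 6.73% with a lower effect). With KEAP1 KO CM set against media 4 of 8 passed, against 14.8% (8.19% higher, 6.65% lower). For Cish the CDDO-Me effect in WT CM minus that in media was −3.50 on the log2 scale (SE 0.43, adjusted p = 6.4e-06). For Socs1 it was 2.40 (SE 0.30, adjusted p = 7.45e-06). The Socs2 and Socs5 effects were lower in WT CM, by −1.56 and −0.997 (adjusted p = 0.00271 and 0.00341), while the Socs7 effect was higher by 0.76 (adjusted p = 0.0338), a call lost in 10 of 22 alternatives. With KEAP1 KO CM the same contrast gave −2.69 for Cish, 2.54 for Socs1, −1.55 for Socs2 and −1.03 for Socs5 (adjusted p = 1.53e-04, 3.8e-06, 0.00303 and 0.00256). Socs3, called within both CM, did not pass this contrast (1.71, adjusted p = 0.106, and 1.88, adjusted p = 0.0701), although it did without the 2 libraries with few genes (adjusted p = 0.00414 and 0.00195).

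The CDDO-Me effect in NRF2 KO CM against media was called for 0 of 8 members by limma (0 at an unadjusted p under 0.05, 0% of all genes). The effect in KEAP1 KO CM against WT CM was likewise called for 0 of 8 (0 at an unadjusted p under 0.05, 0% of all genes). In the latter the 95% intervals were −0.10 to 1.71 for Cish, −0.49 to 0.76 for Socs1 and −1.24 to 1.58 for Socs3. The Cish interval lay mostly above 0, and its KEAP1 KO CM/CDDO-Me libraries, at 1.79 to 4.31 TPM, all exceeded those of WT CM/CDDO-Me, at 0.992 to 1.62 TPM.

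The signalling chain around the family was read from lists chosen for their role. Of 11 JAKs and STATs, Jak2 and Stat2 were higher with WT CM and with KEAP1 KO CM than with media, and 0 were lower. Of all genes 7.23% and 8.06% were called in these comparisons. Jak2 was at 20.4 ± 1.34 TPM in media/vehicle and 42.7 ± 1.77 TPM in WT CM/vehicle (log2 difference 1.10, adjusted p = 3.62e-06). With CDDO-Me 6 of 11 rose in WT CM and 6 in KEAP1 KO CM, Stat2, Stat3 and Tyk2 among them in each, against 27.9% and 28.8% of all genes called. Stat2 went from 47.6, 37.7 and 48.5 TPM to 133, 139 and 158 TPM in WT CM (log2 difference 1.80, adjusted p = 3.9e-10). Stat6, the IL-4 transducer, was singled out after its values were seen. It was at 114 ± 2.53 TPM with vehicle and 108 ± 2.68 TPM with CDDO-Me and did not pass. In media 0 of the 11 passed with CDDO-Me, and in NRF2 KO CM Stat3 was higher and Stat4 lower, against 6.02% and 9.61% of all genes called.

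Among 22 cytokine receptor chains, Il6st, which encodes gp130, and Il4ra were higher with both WT and KEAP1 KO CM. Counting all chains, 3 were higher and 2 lower with WT CM than with media, against 7.23% of all genes called. With KEAP1 KO CM 2 were higher and 2 lower, against 8.06%. With CDDO-Me in WT CM Il4ra rose from 121 ± 23.1 to 316 ± 49.6 TPM (log2 difference 1.52, adjusted p = 9.71e-09), whereas Il6st fell from 151 ± 16.5 to 54.4 ± 6.98 TPM (−1.33, adjusted p = 3.07e-08). In all 7 chains rose and 4 fell with CDDO-Me in WT CM, against 27.9% of all genes called, and 5 rose and 3 fell in KEAP1 KO CM, against 28.8%. In NRF2 KO CM 2 rose and 2 fell, against 9.61%, and in media 2 fell, against 6.02%.

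Of 14 ligand genes 7 were expressed enough to be tested, and Ifng, Ifnb1, Il13, Il11, Csf2, Csf3 and Tslp were not. Ifng, singled out for its role after its values were seen, was listed at 0 in all libraries but 1, a WT CM/vehicle library with 0.0637 TPM. With WT, KEAP1 KO and NRF2 KO CM 0 of the 7 passed against media, where 7.23%, 8.06% and 0.00732% of all genes were called. With CDDO-Me in WT CM, Il27 rose from 1.03, 1.51 and 2.11 TPM to 39.3, 37.2 and 43.5 TPM (log2 difference 4.16, adjusted p = 5.56e-10). In all 3 of the 7 rose there, Il6 (adjusted p = 0.0126) among them, and 2 fell, Il4 (−1.65, adjusted p = 0.00199) among them, against 27.9% of all genes called. In KEAP1 KO CM 3 rose, again with Il27 and Il6, and 2 fell, again with Il4, against 28.8%. With NRF2 KO CM Il6 rose as well (1.64, adjusted p = 0.0190). Il4 was at 20.6 ± 3.48 TPM in media/vehicle and 4.15 ± 1.83 TPM in WT CM/CDDO-Me. Markers of mast cells and basophils, cells known to make IL-4, summed to 7.05 to 9.91 TPM in media/vehicle and to 0.723 to 0.754 TPM in WT CM/CDDO-Me, with Fcer1a at 0 in both groups. They summed to 2.07 to 3.89 TPM in WT CM/vehicle and to 10.0 to 23.3 TPM in NRF2 KO CM/vehicle, and their part was not tested.

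Other inhibitors of the pathway, 13 in all, included both directions. Cblb, a ubiquitin ligase, was higher with WT and KEAP1 KO CM and lower with CDDO-Me in all 4 media, whereas the phosphatase gene Ptpn6 was lower with WT and KEAP1 KO CM and higher with CDDO-Me in these media. Cblb in WT CM fell from 101 ± 15.3 to 16.7 ± 2.51 TPM with CDDO-Me (log2 difference −2.40, adjusted p = 6.16e-11) and Ptpn6 rose from 148 ± 13.2 to 547 ± 101 TPM (1.99, adjusted p = 1.04e-09). In all 4 of the 13 rose and 1 fell with CDDO-Me in WT CM and in KEAP1 KO CM, Usp18 and Ptprc among those that rose, against 27.9% and 28.8% of all genes called. With NRF2 KO CM 1 rose, Ptpn1, and 1 fell, Cblb, against 9.61%. Of 7 partners of the SOCS box, 0 passed with WT or KEAP1 KO CM against media, where 7.23% and 8.06% of all genes were called. With CDDO-Me in WT CM 0 passed, against 27.9%. Elob was higher with WT CM than with NRF2 KO CM, against 10.6%. Ube2f and Eloc passed, both higher, in KEAP1 KO CM with CDDO-Me, against 28.8%, and Eloc in media, against 6.02%.

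Target genes of single STATs were set beside the members. The lists were chosen with earlier results of these data known, so their counts are a description and not an independent test. All 8 listed STAT6 targets (Retnla, Arg1, Ccl24, Clec10a, Chil3, Mrc1, Ccl22 and Ccl17) rose with WT and with KEAP1 KO CM, and all 8 fell with CDDO-Me in each. Of all genes 7.23% and 8.06% were called with these CM, and 27.9% and 28.8% with CDDO-Me in them. In media 0 of the 8 STAT6 targets passed with CDDO-Me, and in NRF2 KO CM 1, Clec10a, was higher, against 6.02% and 9.61%. Ccl24 in WT CM went from 81.2, 54.6 and 104 TPM with vehicle to 1.09, 0.933 and 1.04 TPM with CDDO-Me. With CDDO-Me in WT and KEAP1 KO CM the STAT6 list thus moved in the direction of Cish, Socs2, Socs5 and Socs6. Socs1 and Socs3 moved the other way in both CM, and Socs7 in WT CM. The median log2 difference with CDDO-Me in WT CM was −4.66 over the STAT6 targets, −0.38 over the 8 SOCS members and −0.01 over all genes tested. Targets of STAT3 and of STAT5, with Pim1 and Bcl6 in both lists, were mixed: 3 of 7 STAT3 targets rose and 1 fell with CDDO-Me in WT CM, and 2 of 5 STAT5 targets rose and 1 fell, against 27.9% of all genes called. Nfil3, a STAT3 target, fell with CDDO-Me in WT CM (−1.35, adjusted p = 6.11e-05) and rose in NRF2 KO CM (1.02, adjusted p = 0.00365).

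**Figure D5:**
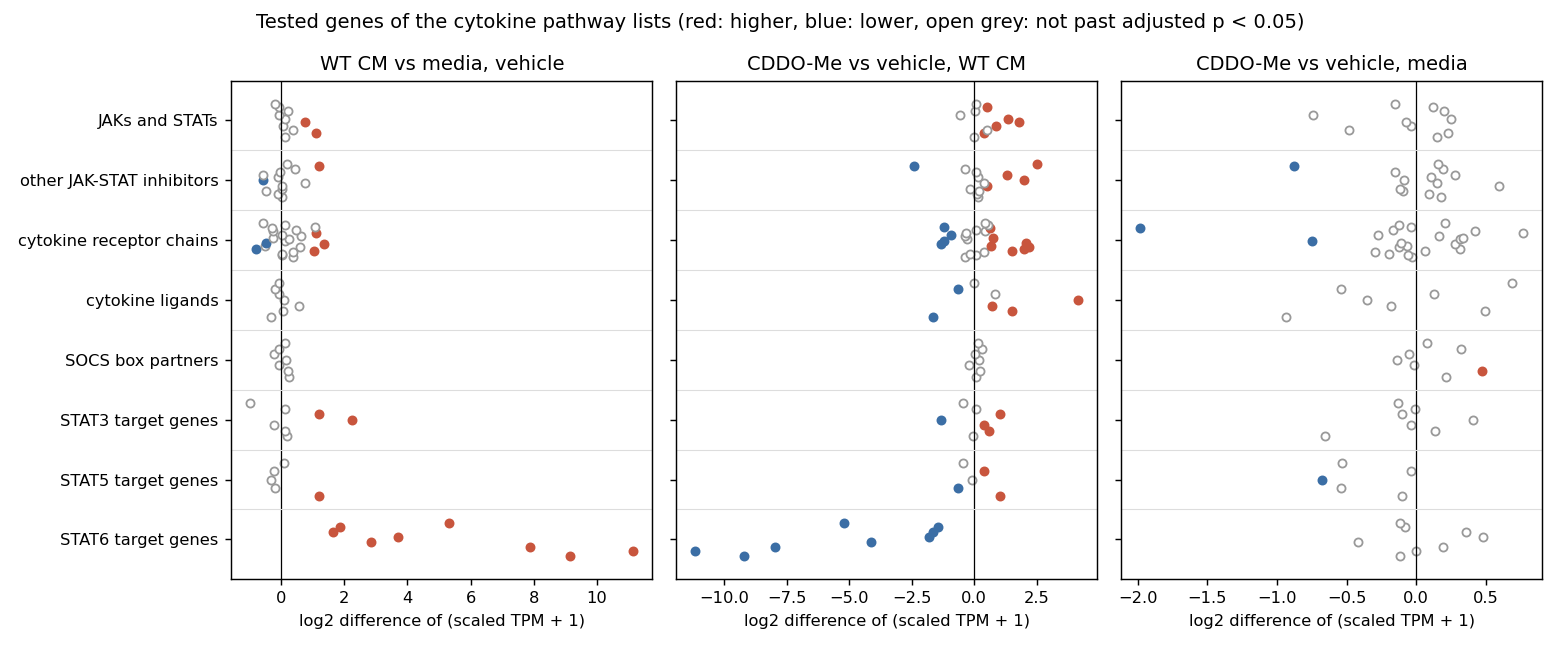
Log2 differences of scaled TPM plus 1 (x axis) for the tested genes reported from each list (rows), for WT CM against media in vehicle, and for CDDO-Me against vehicle in WT CM and in media; each point is a gene, red (higher) and blue (lower) passed an adjusted p under 0.05, and the x axes differ in range. The STAT6 targets are all red in the first panel and all blue in the second, and none is called in the third.

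The genes whose log2 levels ran most like each member over the 24 libraries were found by Pearson's r, as a description, since the 3 libraries of a group share their medium and treatment. For Cish they were Rasgrp1 (r = 0.96), Slc7a2 (0.96) and Fyn (0.96). For Socs1 they were Ocstamp (0.97), Gvin-ps4 (0.97) and Gvin1 (0.97), and for Socs3 Serpina3g (0.95), C1rl (0.95) and Ifi35 (0.94). Gvin-ps4 and Gvin1 belong to a multigene family whose reads may be shared. Socs2 ran closest to Htr2a (0.91), Nup62 (0.90) and Flrt2 (0.90), Socs5 to Pxdc1 (0.92), Srm (0.91) and Loxl4 (0.91), Socs6 to Adgre5 (0.93), Cerk (0.92) and Eepd1 (0.92), and Socs7 to Iqsec2 (0.89), Kcna3 (0.88) and Ccrl2 (0.86). Slc7a2, a cationic amino acid transporter, had the Cish pattern at a higher level, with 5.37 TPM in media/vehicle, 53.0 TPM in WT CM/vehicle and 4.19 TPM in WT CM/CDDO-Me on average. Ocstamp, a fusion protein of osteoclasts and macrophages, had means of 0.497, 10.1 and 14.6 TPM in the same groups. Unlike those of Socs1, its WT CM/vehicle libraries (6.02 to 16.9 TPM) overlapped its WT CM/CDDO-Me libraries (13.6 to 16.1 TPM).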

How the data were processed

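BMDM RNA from 24 libraries was sequenced by the authors as poly-A, paired-end libraries and pseudo-aligned with kallisto to the GRCm39 transcriptome. The deposited values, named as length-scaled TPM gene counts, summed to 999365 to 999801 in each library and were read as TPM per gene. Groups were taken from the sample titles, with 3 samples each. The row without a gene symbol (0.0199 to 0.0635% of TPM) was left out. A gene was kept if 3 or more libraries had over 1 TPM of it (13661 genes). TPM were divided by a TMM-type factor (0.884 to 1.11; 30% trimmed on M, 5% on A), converted to log2(scaled TPM + 1) and fitted with limma 3.58.1 in R 4.3.3 (1 mean per group, 8 groups, eBayes with trend, 16 residual degrees of freedom, 18.9 after moderation), with Benjamini-Hochberg adjustment over all genes and a threshold of 0.05. Tests were two-sided. Log2 differences are on this scale, which understates changes of low genes, whereas fold ratios are ratios of mean deposited TPM. The fit was tested on simulated data.

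TPM keeps no sequencing depth, so no counting interval could be given. In the main fit p-values rest on each gene's spread within groups, pooled over all 8 groups of 3 samples and moderated across genes. The p-values of a comparison therefore also depend on libraries outside it. Values between genes were compared only as TPM. Shares of all genes called stand beside counts of members.

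The members, lists and motifs were chosen with earlier results of these data known. All 8 members were named. From each list up to 4 genes with the smallest adjusted p were named, except where a full list passed, and for each member called in a comparison the 3 genes with the highest r. Results of 1 pathway gene and of the list named for it are not reported here.

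The main results come from a fit without a replicate block, so that no pairing enters their p-values. For the block as an alternative, a comparison met the pairing rule where each pair of same-numbered deviations from the group means correlated above 0.1. Over 84 pairs r ran from 0.0231 to 0.719, with a mean of 0.256, so that same-numbered libraries of different groups may not be independent. The rule held for WT CM and KEAP1 KO CM against each other, WT CM against media, and CDDO-Me in media and in NRF2 KO CM. Where the numbers come from was not given in the sources used here. Alternatives were other scaling (RLE-type, none), pseudocounts of 0.1 and 0.5, no filter, no trend, array weights, a replicate block, a fit of only the groups compared, leaving out each replicate, and leaving out the 2 libraries with the fewest genes. Motifs were searched on both strands with Python 3.11.15.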

Additional observations from a re-analysis of the deposited data

Results flagged for a closer look

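The CDDO-Me effect differed between a conditioned medium and control media for 5 members, by the interaction contrasts of the limma fit (Benjamini-Hochberg adjusted over all genes). With WT CM 5 of 8 members passed, against 15.3% of all genes, and with KEAP1 KO CM 4 of 8, against 14.8%. For Cish, CDDO-Me minus vehicle on the log2 scale was lower in WT CM than in media (difference of effects −3.50, adjusted p = 6.4e-06), and likewise in KEAP1 KO CM (−2.69, adjusted p = 1.53e-04). All 3 CDDO-Me libraries lay below all 3 vehicle libraries within either CM, while the media groups overlapped. For Socs1 the differences of effects were 2.40 and 2.54 (adjusted p = 7.45e-06 and 3.8e-06), with all CDDO-Me libraries of either CM above vehicle and the media groups overlapping. For Socs2 they were −1.56 and −1.55 (adjusted p = 0.00271 and 0.00303), and for Socs5 −0.997 and −1.03 (adjusted p = 0.00341 and 0.00256). In media Socs5 was higher with CDDO-Me without overlap, though not past the threshold (log2 difference 0.29, adjusted p = 0.417). For Socs7 the WT CM contrast alone passed (0.76, adjusted p = 0.0338), a call kept in 12 of 22 alternatives. That of KEAP1 KO CM was 0.51 (adjusted p = 0.186). Whether the effects in these CM differed from each other was tested. By limma 0 of 8 members passed (0 at an unadjusted p under 0.05), against 0% of all genes. The contrasts of both CM share the control media libraries. Fibroblast marker sums ran from 204 to 585 TPM with CDDO-Me and from 549 to 1134 TPM with vehicle in WT CM, and their part was not tested.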

How the results depend on the processing

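Of 112 member-by-comparison results, 51 were called in at least 1 fit, and the following counts cover these. Under the alternatives 836 of their values kept their side of the threshold, 35 gained a call, 28 lost one and 0 reversed. The Cish and Socs1 calls, and the Socs2, Socs5 and Socs6 calls for CDDO-Me in WT and KEAP1 KO CM, held under every alternative. The Cish log2 difference for WT CM against media ran from 3.77 to 5.15 (highest adjusted p 5.88e-05) and that of Socs1 from 3.61 to 4.61 (highest adjusted p 2.53e-05). Array weights raised the number of members called to 6 for WT CM against media (5 higher, 1 lower; 30.1% of all genes called) and to 7 for the CDDO-Me effect in KEAP1 KO CM against media (39% of all genes). They called 1 member each for KEAP1 KO CM against WT CM (Socs5, adjusted p = 0.0136; 7.13% of all genes), CDDO-Me in media (Socs5; 25.8%) and CDDO-Me in NRF2 KO CM (Socs6; 20.4%), where 0 had been called. With only the groups compared in the fit, KEAP1 KO CM against NRF2 KO CM called 2 members, against 1.14% of all genes. Without the 2 libraries with few genes CDDO-Me in media called 1 (Socs5, 0.30, adjusted p = 0.0141), against 14.9%. Leaving out 1 replicate at a time gave 2 to 3 members for WT CM against media (617 to 733 of all genes). It gave 2 to 4 for KEAP1 KO CM against media (704 to 915 of all genes), with 2 without media/vehicle replicate 2. For CDDO-Me in NRF2 KO CM it gave 0 to 1 (1041 to 1500 of all genes), with 1 without NRF2 KO CM/vehicle replicate 1. The main fit called 988, 1101 and 1313 of all genes in these comparisons. In scaled TPM the highest to lowest group mean was 1.12 for Socs4 and 1.90 for Socs5. The cause of these shifts was not tested.

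Over all genes the number called for WT CM against media was 988, and 4114 with array weights, 1743 with the replicate block, 2075 in a fit of only the groups compared and 2590 without the 2 libraries with few genes. It was 617 to 733 with a replicate of its groups left out. For KEAP1 KO CM against WT CM it was 0, and 974 with array weights. For WT CM against NRF2 KO CM it was 1449, and 170 in a fit of only these groups, 3396 with array weights, 811 without WT CM/vehicle replicate 3 and 2476 without NRF2 KO CM/vehicle replicate 1. It ran from 143 (only these groups) to 3687 (array weights) for KEAP1 KO CM against NRF2 KO CM, and from 143 to 2782 under the same settings for CDDO-Me in NRF2 KO CM. Without scaling between libraries the median of all genes shifted to −0.12 with CDDO-Me in WT CM and −0.17 in KEAP1 KO CM, and the share of calls that were higher went from 51.84 to 39.13% and from 50.23 to 34.63%. That share went from 60.63 to 48.17% for WT CM against media and from 64.53 to 44.23% for WT CM against NRF2 KO CM.

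With the replicate number as a block, CDDO-Me in NRF2 KO CM called 1 member instead of 0, Socs6 (−0.46, adjusted p = 0.0274), against 14.5% of all genes. In the other 3 comparisons that met the pairing rule the block changed no member's call. Where the pairing rule did not hold, the block added Socs3 for KEAP1 KO CM against media (adjusted p = 0.0498), Socs5 for WT CM against NRF2 KO CM (0.0128), Socs3 and Socs6 for the CDDO-Me effect in WT CM against media (0.00415 and 0.0390) and Socs3 for that in KEAP1 KO CM (0.00192). Depth per library could not be weighed, since TPM does not hold it.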
